A study of Mus musculus with 8 samples.

Results

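The genes described here are the TGF-beta ligands, receptors and latent binding proteins, chosen by symbol: the ligands Tgfb1, Tgfb2 and Tgfb3, the receptors Tgfbr1, Tgfbr2 and Tgfbr3, and the latent TGF-beta binding proteins Ltbp1, Ltbp2, Ltbp3 and Ltbp4. All 10 were listed among the 24552 genes of the table, and 8 were counted often enough to be tested. They were measured in the exorbital lacrimal glands (LGs) of female C57BL/6J mice, in 4 libraries from mice fed ad libitum (AL) and 4 from mice under a 40% calorie restriction (CR). The diets lasted 4 months from 6 to 7 months of age, so the glands came from mice of 10 to 11 months. CR mice received their food once a day shortly before the dark phase. No mouse carried a transgene or received another treatment according to the labels and the study's methods. The study's mice came from more than one dietary cohort, with different chows, and the cohort, the cage and the hour at which each gland was taken are not on the labels. The comparison asks how the RNA of these genes differs between LGs of the 2 diets.

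TGF-beta is a secreted cytokine that restrains immune cells and drives matrix production by fibroblasts. Each ligand is made as a precursor whose cleaved propeptide stays wrapped around the mature dimer and keeps it latent. Inside the secreting cell this latent complex is usually linked to an LTBP, which ties it to fibrillin microfibrils in the extracellular matrix (ECM). There integrins can pull some of the ligands free. The free ligand binds the type II receptor (Tgfbr2), which phosphorylates the type I receptor (Tgfbr1), and this in turn phosphorylates Smad2 and Smad3. In the LG, TGF-beta is best known for limiting lymphocyte activity and for its part in gland fibrosis.

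The promoters of Tgfb2 and Ltbp3 are shown because these were the 2 members called different between the diets. The set of RefSeq promoters on GRCm38.p6 used here held 8 of the 10 members, with 12 promoters in all. Tgfb3 and Tgfbr3 were not in this set. Each sequence is the 250 bases before the annotated start, 5′ to 3′ on the gene's strand, and capitals mark matches to the motifs searched.
Tgfb2, chr1:186705990-186706239, minus strand: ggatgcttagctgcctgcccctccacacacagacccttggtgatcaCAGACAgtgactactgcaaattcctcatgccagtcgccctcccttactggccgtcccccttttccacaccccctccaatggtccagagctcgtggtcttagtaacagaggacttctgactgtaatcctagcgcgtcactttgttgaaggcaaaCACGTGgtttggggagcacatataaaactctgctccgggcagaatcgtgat
Ltbp3, chr19:5740650-5740899, plus strand: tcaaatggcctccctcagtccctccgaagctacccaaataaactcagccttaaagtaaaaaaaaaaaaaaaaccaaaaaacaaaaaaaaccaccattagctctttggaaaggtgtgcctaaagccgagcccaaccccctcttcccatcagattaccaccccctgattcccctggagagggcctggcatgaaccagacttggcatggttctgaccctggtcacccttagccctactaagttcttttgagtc
The motifs were the E-box CACGTG bound by clock factors among others, the D-box TTANGTAA of PAR bZIP factors, the cAMP response element TGACGTCA, the GC box GGGCGG and the SMAD element CAGACA, all read on both strands. The Tgfb2 promoter held the E-box between 51 and 46 bases before the start and the SMAD element between 204 and 199 bases before it. The E-box letters occur in 6.02% of the 32851 promoters of this length, and the SMAD element in 17.1%. The Ltbp3 promoter held none of the 5, of which the D-box occurs in 2.06% of promoters, the cAMP response element in 1.55% and the GC box in 32.7%. GC content was 53.6% for Tgfb2 and 47.2% for Ltbp3, beside a median of 52.4% over all promoters. A match describes letters only and was not tested as a binding site.

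The libraries held between 12051881 and 22156511 counts in AL and between 13720079 and 19310319 in CR. Levels are in CPM, which sets each count against its library's size after adjustment by an RLE factor, and 3 counts, taken as the floor, equal between 0.152 and 0.231 CPM. The reads carry no molecular identifiers, so the floor and the intervals on shares cover counting error only. Obp1a, Scgb2b24 and other secretory genes of the LG list were abundant, with a summed level of 202932 to 248174 CPM in AL and 94807 to 217928 CPM in CR. RNA of salivary type was present too. The summed level of 7 parotid genes was 13808 to 43311 CPM in AL and 56392 to 304314 CPM in CR, and 3 of the 7 were called higher in CR. The 6 submandibular and sublingual genes summed to 80.0 to 4939 CPM in AL and 5012 to 58415 CPM in CR, while their defining gene Smgc was at 0 in every library.

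CR LGs had more Tgfb2 and Ltbp3 RNA than AL LGs, and no member was called lower. DEGs were genes that changed at least 1.5-fold with an adjusted p under 0.05 in the quasi-likelihood test of edgeR, adjusted over all 11211 genes tested after Benjamini and Hochberg. Of the 8 members tested, 2 were called higher, where 1.2% of all tested genes were, and 0 were called lower, where 0.785% of all tested genes were. At an unadjusted p under 0.05 Tgfbr1 was the only member lower in CR, and DESeq2 called none lower either. The libraries of the diets did not overlap for Ltbp3 and Tgfbr1, that is for 2 of the 8, where 9.79% of all tested genes did not overlap. The median log2 fold change of the 8 was 0.10, beside 0.01 over all genes tested, and 6 of the 8 were positive, where 51.1% of all tested genes were. In bulk tissue a change in the number of cells of a type and a change of RNA per cell cannot be told apart.

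**Figure D1:**
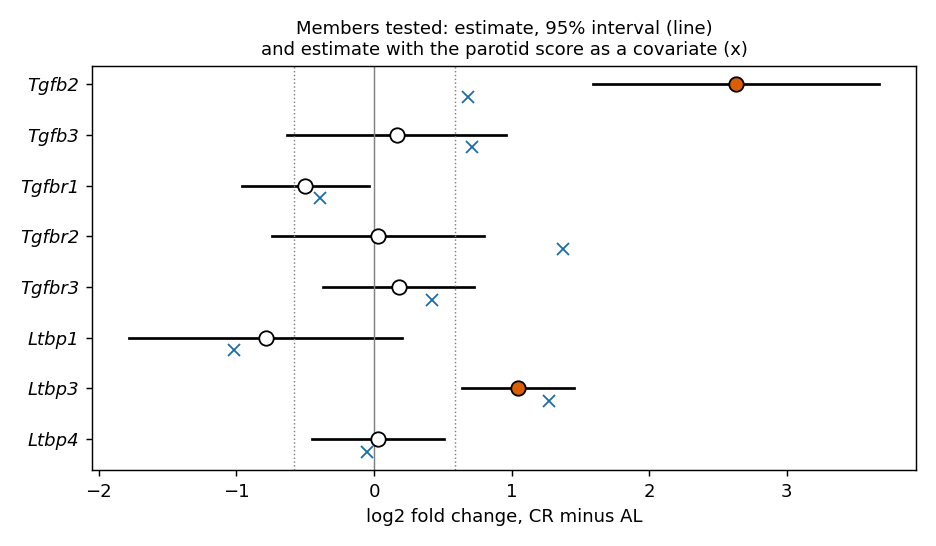
Log2 fold change of CR over AL (horizontal axis) for the 8 members tested, with 95% confidence intervals as bars. Filled points are the called members Tgfb2 (2.63) and Ltbp3 (1.04), white points were not called, dotted lines mark a fold change of 1.5 in either direction, and crosses give the estimate with the parotid score described further on as a covariate (0.68 for Tgfb2, 1.27 for Ltbp3).

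Tgfb2, the ligand needed for heart, eye and craniofacial development, was the member with the largest difference. Its gene (Gene ID 21808) lies on the minus strand of chr1:186622792-186705989 (GRCm38, GENCODE vM21). Tgfb2 levels were 9.55, 7.24, 6.56 and 3.55 CPM for AL replicates 1 to 4, against 58.2, 49.9, 48.9 and 9.22 CPM for the CR replicates in that order. These levels come from 124, 118, 90 and 70 counts in AL and from 823, 843, 789 and 166 counts in CR. In CR, 3 libraries stood far above every AL library, whereas CR replicate 4 lay just below AL replicate 1, so the diets overlapped. The mean was 6.73 ± 2.47 CPM in AL and 41.5 ± 22.0 CPM in CR (SD, n = 4 each). The log2 fold change was 2.63 ± 0.48 (SE; 95% interval 1.59 to 3.67, 6.2-fold; adjusted p = 0.0197, edgeR). Without CR replicate 4 it was 2.97 ± 0.27 (adjusted p = 0.000111, edgeR). The call was kept in 4 of the 8 fits that left out 1 library. It was lost without AL replicate 2 (adjusted p = 0.0751), AL replicate 3 (0.0604), CR replicate 2 (0.0758) or CR replicate 3 (0.061), all by edgeR.

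The antisense gene Gm29491 overlaps an exon of Tgfb2, though not its last 600 bases, where 3′ end counts fall. Tgfb1, the ligand most expressed by immune cells and the one best known for immune restraint, was barely counted. Tgfb1 (Gene ID 21803, plus strand of chr7:25687002-25705077) had 3, 2, 11 and 5 counts in AL and 7, 6, 0 and 4 counts in CR, too few for the fit. Its mean level was 0.352 ± 0.305 CPM in AL and 0.268 ± 0.211 CPM in CR (SD, n = 4 each; two-sided exact permutation test, p = 0.686, where 4 against 4 libraries allow no p below 0.0286). At this depth a difference in Tgfb1 RNA was not detectable, and most libraries were within a few counts of the floor. Tgfb3, which acts in palate fusion and in scarring, was also low. Tgfb3 (Gene ID 21809, minus strand of chr12:86056745-86079041) ranged from 1.47 to 2.74 CPM in AL and from 1.63 to 2.94 CPM in CR. Its log2 fold change was 0.17 ± 0.37 (95% interval -0.63 to 0.96; adjusted p = 0.884, edgeR). The antisense genes Gm37804 and Gm48008 overlap exons of Tgfb3.

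**Figure D2:**
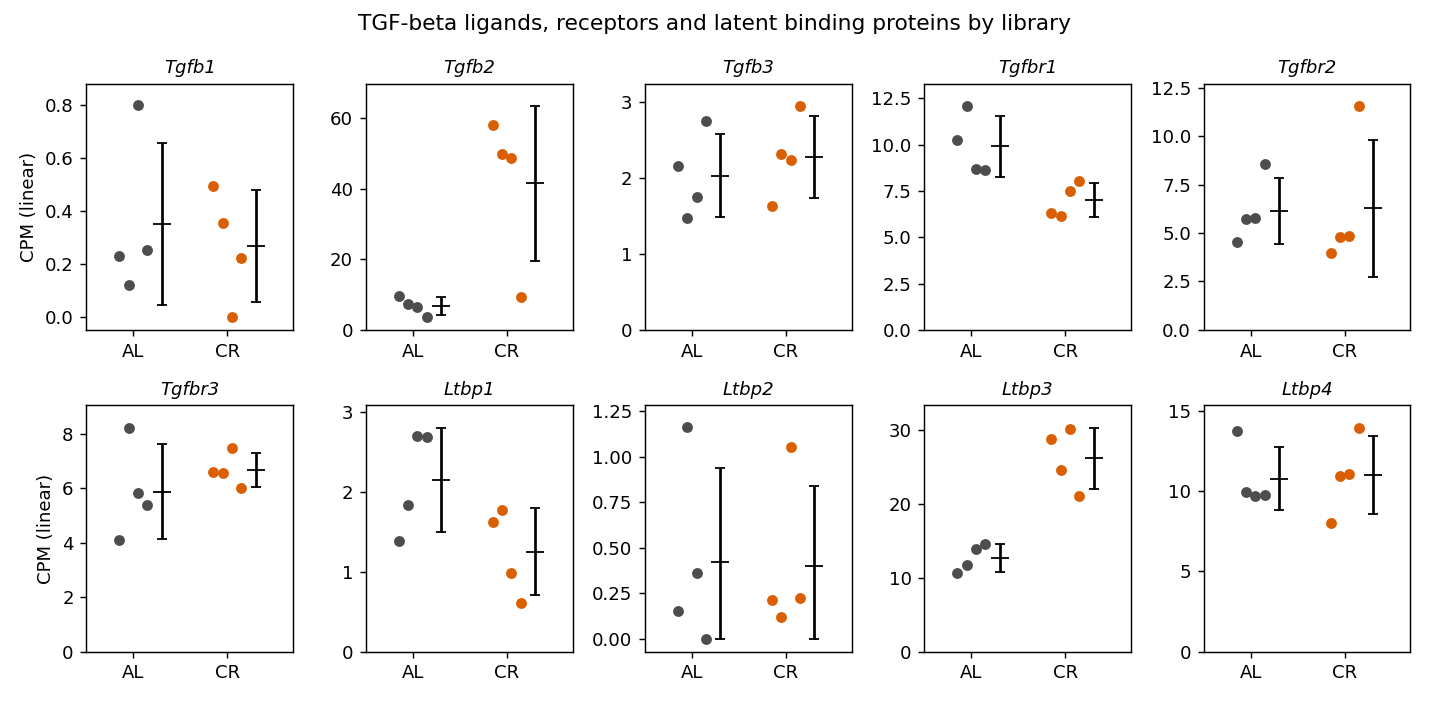
Level of each of the 10 members in every library, in CPM on a linear axis that differs between panels; points are libraries, and the bar beside each diet is the mean ± SD (n = 4), cut at 0. Tgfb2 in CR shows 3 libraries between 48.9 and 58.2 CPM and 1 at 9.22 CPM, Ltbp3 in CR sits above AL in all 4 libraries, and Tgfbr1 in CR sits below AL in all 4.

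The library order of Tgfb2 was the same as that of Bpifa2, a secreted protein abundant in parotid saliva, but not as that of the other parotid genes. Amy1 had this order too but for CR replicates 1 and 2, which changed places. By its mean CPM over the 8 libraries Bpifa2 was the highest of the 7 parotid genes (Car6 had the higher mean in AL). Bpifa2 levels were 17744, 9816, 7918 and 190.1 CPM for AL replicates 1 to 4, against 167977, 165198, 151207 and 13700 CPM for the CR replicates in that order. CR replicate 4, the CR library with the least Tgfb2, was also the CR library with the least Bpifa2, and AL replicate 1 led AL in both. CR replicate 4 was the lowest CR library for 4 of the 7 parotid genes, Bpifa2, Amy1, Car6 and Dnase1. For the 3 called ones, Prb1, Prh1 and Prp2, CR replicate 3 was the lowest, and CR replicate 4 lay above every AL library (Prb1 at 418.8 CPM, against 233.2 CPM in CR replicate 3 and at most 90.5 CPM in AL). Ltbp3 did not have the order of Bpifa2, since AL replicate 4 had the least Bpifa2 and the most Ltbp3 of the AL libraries. Within CR, though, replicate 4 had the least of both (Ltbp3 at 21.1 CPM). With the mean log2 CPM of the 7 parotid genes as a covariate, the log2 fold change of Tgfb2 was 0.68 ± 0.83 (adjusted p = 0.795, edgeR) and that of Ltbp3 was 1.27 ± 0.40 (adjusted p = 0.361, edgeR). In that fit 4 of all genes were called higher and 0 lower, the score running from 3.87 to 8.78 in AL and from 10.67 to 13.85 in CR without overlap. The part of salivary RNA in the Tgfb2 difference was not tested, and diet and parotid score cannot be told apart in these 8 libraries.

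**Figure D3:**
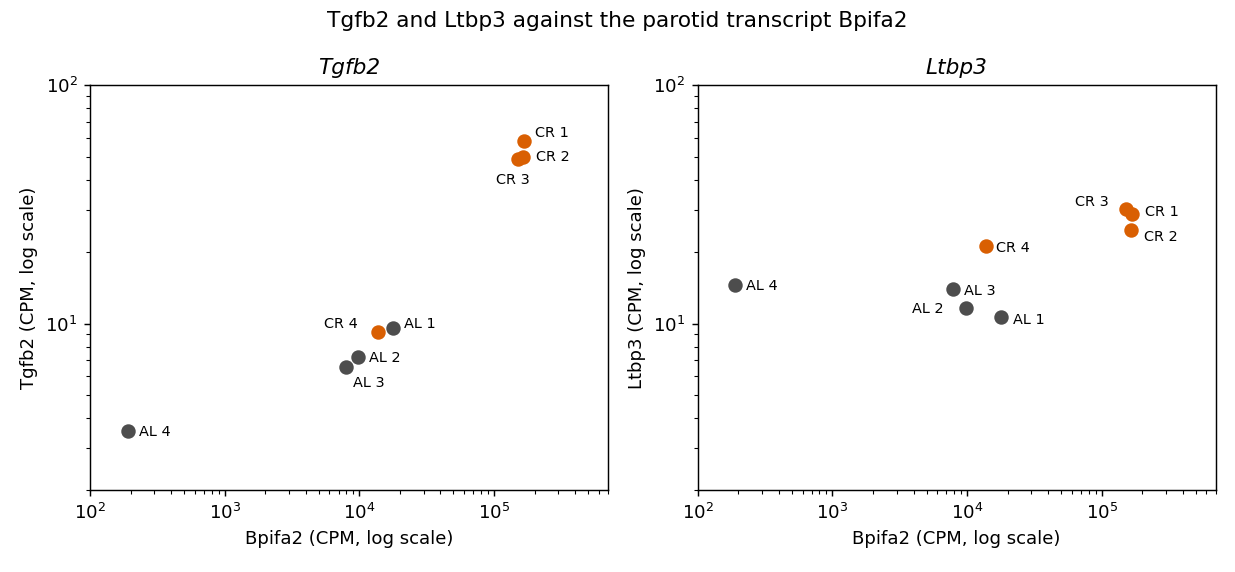
Tgfb2 (left) and Ltbp3 (right) against the parotid transcript Bpifa2, both in CPM on log axes, with each point a library labelled by diet and replicate. Tgfb2 takes the same order as Bpifa2, though not as the other parotid genes, over the 8 libraries, from AL 4 (3.55 CPM) to CR 1 (58.2 CPM). Amy1 departs from that order only in CR 1 and CR 2, which change places. The 4 AL libraries of Ltbp3 stay between 10.6 and 14.5 CPM as their Bpifa2 runs from 190.1 to 17744 CPM, while CR 4 is the lowest CR library in both panels.

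The receptors showed no called difference, and the type I receptor was lower in every CR library. Tgfbr1 (Gene ID 21812, plus strand of chr4:47353222-47414931) encodes the kinase that phosphorylates Smad2 and Smad3. Tgfbr1 levels were 10.3, 12.1, 8.67 and 8.63 CPM for AL replicates 1 to 4, against 6.30, 6.16, 7.49 and 8.05 CPM for the CR replicates in that order. All 4 CR libraries lay below all 4 AL libraries, though CR replicate 4 was close to AL replicates 3 and 4. The mean was 9.91 ± 1.64 CPM in AL and 7.00 ± 0.923 CPM in CR (SD, n = 4 each). The difference on the log2 scale was -0.50 ± 0.21 (95% interval -0.96 to -0.04; adjusted p = 0.25, edgeR), which missed the threshold. Leaving out each library in turn gave between -0.57 and -0.39.

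Tgfbr2 (Gene ID 21813, minus strand of chr9:116084293-116175360) encodes the receptor that binds the ligand first. Its levels were 4.55, 5.70, 5.76 and 8.58 CPM for AL replicates 1 to 4, against 3.96, 4.80, 4.83 and 11.6 CPM for the CR replicates in that order. Replicate 4 was the highest of each diet, and CR replicate 4 stood far above the other CR libraries. The log2 fold change was 0.03 ± 0.36 (95% interval -0.74 to 0.80; adjusted p = 0.982, edgeR), and without CR replicate 4 it was -0.44 ± 0.29 (adjusted p = 0.449, edgeR). With the parotid covariate it was 1.38 ± 0.58 (adjusted p = 0.456, edgeR). Tgfbr3, or betaglycan, is a co-receptor that presents ligand, Tgfb2 above all, to the type II receptor. Tgfbr3 (Gene ID 21814, minus strand of chr5:107106570-107289629) ranged from 4.08 to 8.22 CPM in AL and from 6.00 to 7.49 CPM in CR. Its log2 fold change was 0.18 ± 0.25 (95% interval -0.37 to 0.73; adjusted p = 0.803, edgeR), and Gm43422 overlaps one of its exons on the same strand.

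Of the latent binding proteins, Ltbp3 was higher in CR, and the other three were not called. Ltbp3 (Gene ID 16998, plus strand of chr19:5740904-5758532) binds latent ligand and is known for its roles in bone and teeth. Ltbp3 levels were 10.6, 11.7, 13.9 and 14.5 CPM for AL replicates 1 to 4, against 28.8, 24.6, 30.2 and 21.1 CPM for the CR replicates in that order. These levels come from 138, 190, 191 and 286 counts in AL and from 407, 415, 487 and 380 counts in CR. The lowest CR library was above the highest AL library. The mean was 12.7 ± 1.84 CPM in AL and 26.2 ± 4.12 CPM in CR (SD, n = 4 each). On the log2 scale Ltbp3 rose by 1.04 ± 0.19 (SE; 95% interval 0.64 to 1.45, 2.06-fold; adjusted p = 0.0187, edgeR). The call was kept in 4 of the 8 fits that left out 1 library, with log2 fold changes of 0.97 to 1.13 over the 8. It was lost without AL replicate 1 (adjusted p = 0.0604), AL replicate 2 (0.0792), CR replicate 2 (0.051) or CR replicate 3 (0.0618), all by edgeR.

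Ltbp4, an LTBP of elastic fibre assembly, was the second most counted latent binding protein. Ltbp4 (Gene ID 108075, minus strand of chr7:27305136-27337692) ranged from 9.69 to 13.7 CPM in AL and from 7.99 to 13.9 CPM in CR, with a log2 fold change of 0.03 ± 0.22 (95% interval -0.45 to 0.51; adjusted p = 0.97, edgeR). Ltbp1, the first LTBP described as a carrier of latent TGF-beta, was scarce. Ltbp1 (Gene ID 268977, plus strand of chr17:75005568-75392512) was at 2.15 ± 0.65 CPM in AL and 1.25 ± 0.546 CPM in CR, with a log2 fold change of -0.79 ± 0.45 (95% interval -1.78 to 0.20; adjusted p = 0.429, edgeR). Its AL and CR libraries overlapped. Ltbp2 is a microfibril protein thought not to bind latent TGF-beta. Ltbp2 (Gene ID 16997, minus strand of chr12:84783212-84876532) had 2, 19, 5 and 0 counts in AL and 3, 2, 17 and 4 counts in CR, too few for the fit. Its mean was 0.421 ± 0.518 CPM in AL and 0.401 ± 0.437 CPM in CR (SD, n = 4 each; exact permutation test, two-sided, p = 0.914), and D030025P21Rik overlaps it on the other strand.

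Counts of 3′ ends do not scale with the length of a transcript, so levels of different genes were compared without dividing by length. In AL the means ran, from the top, Ltbp3, Ltbp4, Tgfbr1, Tgfb2, Tgfbr2, Tgfbr3, Ltbp1, Tgfb3, Ltbp2 and Tgfb1, and each neighbouring pair in this order had overlapping libraries except Tgfbr3 and Ltbp1, and Tgfb3 and Ltbp2. In CR the order was Tgfb2, Ltbp3, Ltbp4, Tgfbr1, Tgfbr3, Tgfbr2, Tgfb3, Ltbp1, Ltbp2 and Tgfb1, with overlap between all neighbours except Ltbp3 and Ltbp4, and Tgfbr2 and Tgfb3. Tgfb2 thus moved from the fourth place to the first, with CR replicate 4, where Ltbp3 was at 21.1 CPM and Tgfb2 at 9.22 CPM, as the exception.

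Shares within a library do not depend on how libraries are scaled. Of the counts of the 3 ligands, Tgfb2 took 80.0, 81.9, 72.0 and 54.3% for AL replicates 1 to 4, against 96.5, 94.9, 95.6 and 74.4% for the CR replicates in that order. Tgfb2 was the most counted ligand in all 8 libraries, and the share of CR replicate 4 (exact 95% interval 68.2 to 80.0%) fell among those of AL. Tgfb3 took 23.9 ± 12.0% in AL and 8.80 ± 10.0% in CR, and Tgfb1 4.00 ± 3.37% and 0.822 ± 0.738% (SD, n = 4 each). Of the counts of the 4 latent binding proteins, Ltbp3 took 41.1, 47.4, 52.2 and 53.9% for AL replicates 1 to 4, against 74.5, 65.7, 69.7 and 58.8% for the CR replicates in that order. These shares of Ltbp3 did not overlap between the diets. Ltbp4 took 41.5 ± 7.92% in AL and 28.6 ± 7.68% in CR, and Ltbp1 8.23 ± 2.27% and 3.24 ± 1.47%. The shares are a description and were not tested.

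**Figure D4:**
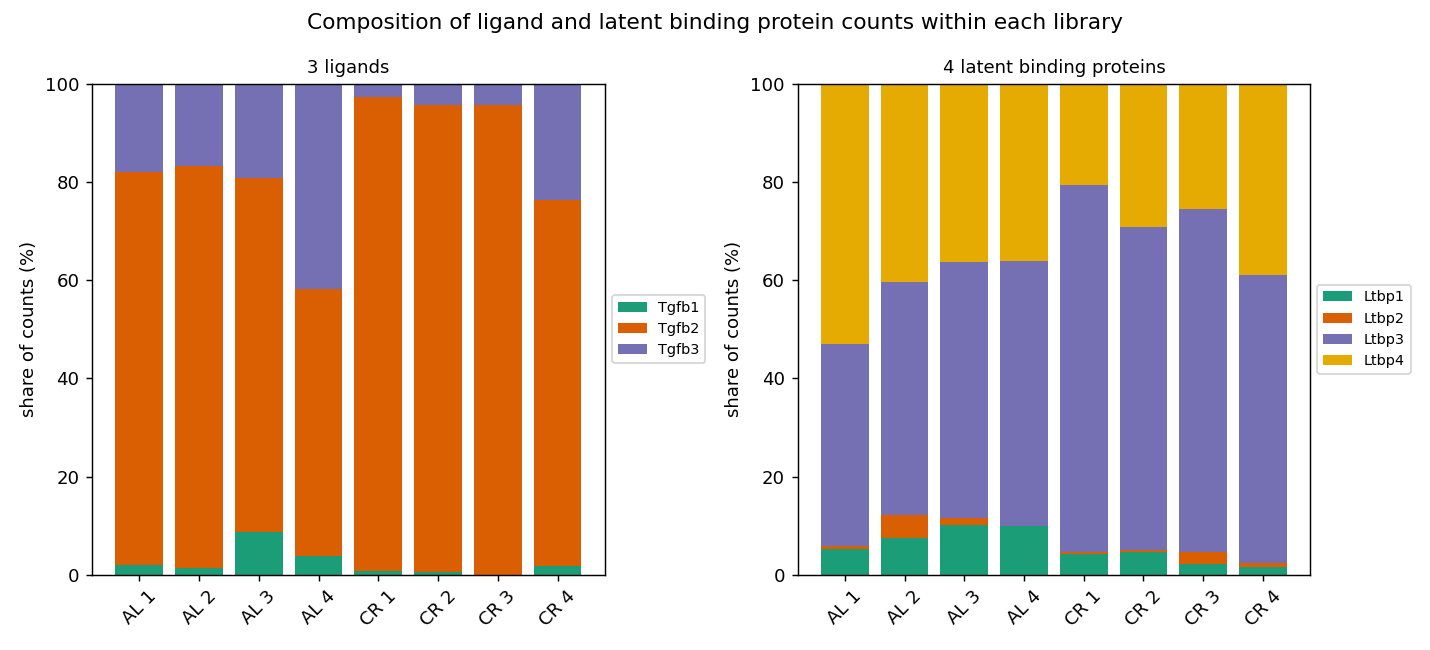
Share of counts (percent, vertical axis) of each ligand among the counts of the 3 ligands (left) and of each latent binding protein among those of the 4 (right), with 1 bar per library. Tgfb2 takes 54.3 to 81.9% of ligand counts in AL and 74.4 to 96.5% in CR, and Ltbp3 takes 41.1 to 53.9% of binding protein counts in AL and 58.8 to 74.5% in CR.

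The rest of the pathway was read from 5 lists of 53 genes, of which 42 were tested. None was called higher and 3 were called lower, where 1.2% of all tested genes were called higher and 0.785% lower. The median log2 fold change of the 42 was -0.27, beside 0.01 over all genes tested. The libraries of the diets were apart for 12 of the 42 genes, 10 lower and 2 higher in CR, where 9.79% of all tested genes did not overlap. No activator or carrier was called of 8 tested (median -0.14). The one with the smallest p was Nrros, which tethers latent TGF-beta on macrophages and microglia, at 7.13 ± 2.66 CPM in AL and 3.54 ± 0.951 CPM in CR (log2 fold change -1.01 ± 0.33; adjusted p = 0.139, edgeR). Of 5 accessory receptors and decoys none was called (median -0.18). The proteoglycan Bgn had the smallest p, with a log2 fold change of -0.57 ± 0.29 (adjusted p = 0.35, edgeR).

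Among the microfibril genes, to which LTBPs attach, 1 of 5 tested was called (median -0.78). This was Fbn1, which encodes fibrillin-1, the main microfibril protein. Fbn1 levels were 9.48, 7.73, 16.1 and 11.5 CPM for AL replicates 1 to 4, against 5.16, 3.43, 3.65 and 2.56 CPM for the CR replicates in that order. Every CR library lay below every AL library, and Fbn1 fell by 1.60 on the log2 scale (SE 0.30; adjusted p = 0.0208, edgeR), a call kept in 5 of the 8 fits that left out 1 library. It was lost without AL replicate 3 (adjusted p = 0.0602), CR replicate 2 (0.0889) or CR replicate 3 (0.0671), all by edgeR. Fbn1 thus fell where Ltbp3 rose, each against its own AL libraries.

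No Smad or Smad regulator was called of 12 tested (median 0.05, 7 positive). The smallest p was that of Ppm1a, a phosphatase that acts on Smad2 and Smad3, at 29.7 ± 3.44 CPM in AL and 49.8 ± 10.2 CPM in CR (log2 fold change 0.75 ± 0.19; adjusted p = 0.0636, edgeR). DESeq2 called Ppm1a higher (adjusted p = 0.0147), and so did edgeR without CR replicate 4 (log2 fold change 0.88; adjusted p = 0.00716). Without that library the list had 3 genes called higher in place of 0, the others being the Smad repressor Ski (adjusted p = 0.0341, edgeR) and the Smad anchor Zfyve9 (adjusted p = 0.0417, edgeR), both named after their values were seen. Over all genes the number called higher rose as well, from 134 of 11211 tested to 453 of 11401. With the parotid covariate none of the 3 was called, and the log2 fold change was 0.30 for Ppm1a (adjusted p = 0.814, edgeR), 0.31 for Ski (0.832) and 0.33 for Zfyve9 (0.811). Other genes of this list were lower in CR, though not called. These were Pmepa1 (log2 fold change -0.845, adjusted p = 0.149, edgeR), Smad7 (-0.798, 0.273) and Smad3 (-0.657, 0.2), also named after their values were seen. Every CR library lay below every AL library for Pmepa1, Smad7 and Smad3, and above for Ppm1a and Zfyve9. Of 12 target genes tested, 2 were called lower and 10 had a negative log2 fold change (median -0.74). Both were collagen genes. Fn1, which encodes fibronectin and is named after its values were seen, was at 8.29 ± 4.55 CPM in AL and 2.48 ± 1.16 CPM in CR (log2 fold change -1.74 ± 0.43; adjusted p = 0.0607, edgeR). DESeq2 called Fn1 lower too (adjusted p = 0.00369), and so did edgeR without the filter on low counts (adjusted p = 0.0205). Col3a1 fell by 2.79 on the log2 scale (SE 0.24; adjusted p = 0.000672, edgeR), from 36.6 ± 9.73 to 5.28 ± 1.15 CPM. Col1a1 fell by 2.50 (SE 0.26; adjusted p = 0.00157, edgeR), from 18.3 ± 5.59 to 3.22 ± 0.571 CPM. Both calls were kept in all 8 fits that left out 1 library. With the parotid covariate neither was called, nor were Fbn1 and Fn1, and the log2 fold changes were -2.56 for Col3a1 (adjusted p = 0.177, edgeR), -1.80 for Col1a1 (0.303), -1.85 for Fbn1 (0.385) and -1.54 for Fn1 (0.572). Fbn1, Fn1, Col1a1 and Col3a1 stand in the study's own ECM list drawn from these samples, so their place in these lists is not independent evidence of a direction. The fibroblast markers moved with them, with a summed level of 57.3 to 104.1 CPM in AL and 28.3 to 52.0 CPM in CR, though 0 of 7 were called and all 7 had negative log2 fold changes. The macrophage markers, 0 of 5 called, summed to 58.4 to 183.3 CPM in AL and 34.6 to 72.4 CPM in CR. Their part in the lower collagen, Fbn1 and Nrros levels was not tested.

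**Figure D5:**
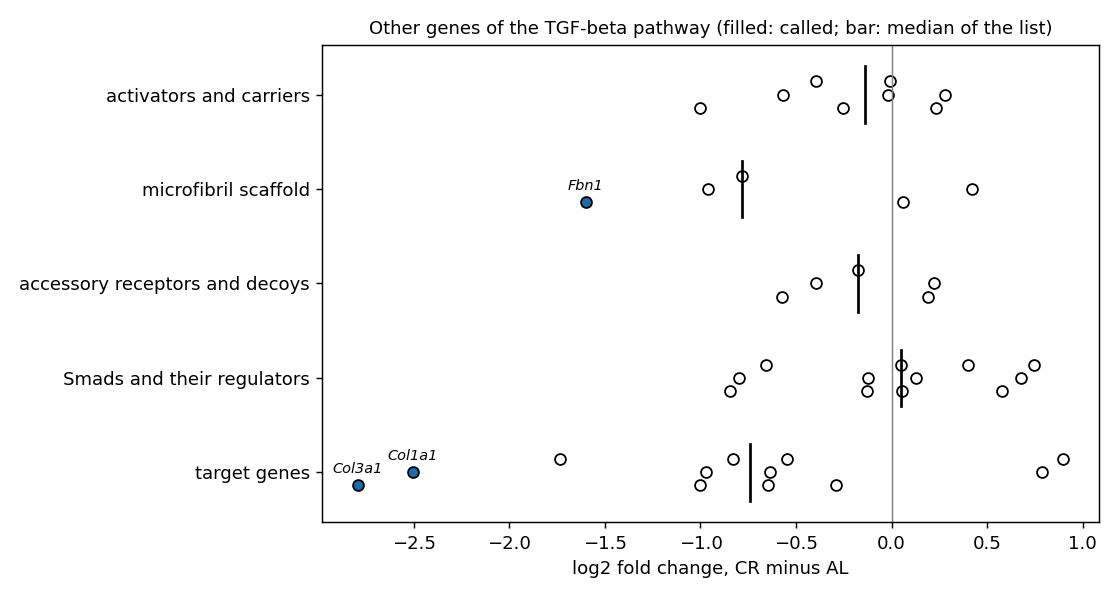
Log2 fold change of CR over AL (horizontal axis) for each of the 42 pathway genes tested, in rows by list with heights inside a row spread only for legibility; filled points are called genes and vertical bars are list medians. The 3 called genes, Fbn1 (-1.60), Col1a1 (-2.50) and Col3a1 (-2.79), all lie below 0.

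For each called member the 5 tested genes with the most similar log2 CPM over the 8 libraries were listed, as a description over libraries that share diet and gland composition. For Tgfb2 these were Adora1, the adenosine A1 receptor (Pearson r = 0.99), Atp1b1, a sodium pump subunit (0.988), Snph (0.986), Pml (0.984) and Chchd10 (0.983). For Ltbp3 they were Glul, glutamine synthetase (0.992), Cdo1, cysteine dioxygenase (0.977), the clock output factor Tef (0.976), the nucleoside transporter Slc29a1 (0.972) and Pink1, a mitochondrial kinase (0.971). No gene was in both sets. Adora1 was at 1.65 ± 0.924 CPM in AL and 36.5 ± 23.0 CPM in CR, with a spread in CR as wide as that of Tgfb2. Glul was at 124.7 ± 22.1 CPM in AL and 489.0 ± 141.8 CPM in CR, without overlap, as for Ltbp3.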

How the data were processed

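Total RNA of exorbital LGs was made into libraries of 3′ ends with an oligo(dT)-primed QuantSeq FWD kit. Per the study's methods and the labels, reads were trimmed with cutadapt, checked with FastQC, aligned to mm10 with STAR and counted per gene with HTSeq on ROSALIND. Versions, annotation and strand setting are not given in the sources used here. The authors deposited raw counts, used here, and log2 values made from them with DESeq2's RLE factors, which were not used. Leaving out 5 repeated symbols gave 24552 genes, and the 11211 that passed edgeR's filterByExpr were tested.

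Groups follow the labelled diet. The counts of CR and AL were compared by edgeR 4.0.16 in R 4.3.3 (RLE factors, quasi-likelihood F test, no covariate, Benjamini-Hochberg adjustment over all tested genes). Standard errors were obtained by dividing each log2 fold change by the root of its F value, and intervals use the t quantile of the fit. The biological coefficient of variation was 34.7%. Members that missed the filter were compared by an exact permutation test of mean CPM, unadjusted. The study describes the libraries of a diet as coming from different mice, which the labels do not state, and p-values measure the spread between these samples. The fit was tested on simulated data.

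Named are all 10 members. Of the pathway lists, the called genes and the gene with the smallest p in each are named, and of marker lists the most abundant or absent genes. Sox10, Fn1, Ski, Zfyve9, Smad3, Smad7, Pmepa1, Col1a2 and the parotid genes other than Bpifa2 were named after their values were seen. The 5 tested genes most correlated with each called member over the 8 libraries (log2 CPM, prior count 0.5) are also named, as are overlapping genes. The members and lists were chosen with earlier results of these data known. Pathway lists covered activators and carriers, microfibril scaffold, accessory receptors and decoys, Smads and their regulators, and target genes. Marker lists covered parotid, submandibular and sublingual, lacrimal, duct, myoepithelial, fibroblast, smooth muscle and pericyte, endothelial, macrophage, T cell, B cell, white adipose and skeletal muscle genes. One target gene, Ccn2, was matched under its older symbol Ctgf. Positions come from GENCODE vM21 on GRCm38 and promoters from RefSeq.

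The alternatives were TMM factors, leaving out the 50 most counted genes, DESeq2 1.42.0, testing without a filter, a minimum of 10 counts per library, a block for the replicate number, the parotid score as a covariate, no fold change threshold, and leaving out each library in turn.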

Additional observations from a re-analysis of the deposited data

Results flagged for a closer look

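In 3 of the 20 groups formed by 10 members and 2 diets, 1 library stood apart from the other three, its gap taking more than 0.829 of the group's range, the 95% critical value of Dixon's test for 4 samples. Chance alone marks about 1 in 20 groups. Tgfbr2 was at 11.6 CPM in CR replicate 4, and the gap took 0.886 of the range of CR. Ltbp2 was at 1.05 CPM in CR replicate 3 (0.889 of the range), which rests on 17 counts. Ltbp4 was at 13.7 CPM in AL replicate 1 (0.939 of the range). None of the 3 genes was called between the diets.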

How the results depend on the processing

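TMM factors, leaving out the 50 most counted genes, DESeq2, no filter and at least 10 counts in every library each left 2 members called higher, Tgfb2 and Ltbp3, and 0 lower. With the parotid covariate 0 members were called higher, and the log2 fold change was 0.68 for Tgfb2, 1.27 for Ltbp3, 1.38 for Tgfbr2, 0.71 for Tgfb3 and -0.052 for Ltbp4. The cause was not tested. Leaving out each library in turn gave 0 to 2 members called higher, and 2.41 to 2.97 for Tgfb2, 0.97 to 1.13 for Ltbp3, -0.44 to 0.24 for Tgfbr2 and -0.10 to 0.17 for Ltbp4 on the log2 scale. Neither call held when AL replicate 2 or either of CR replicates 2 and 3 was left out. Over the same fits the difference of mean CPM (CR minus AL) ran from -0.161 to 0.0656 for Tgfb1 and from -0.237 to 0.229 for Ltbp2, so depth gave no direction for either. Over all genes, 134 were called higher and 88 lower, beside 413 and 316 with DESeq2, 271 and 165 without the filter, 453 and 247 without CR replicate 4, and as few as 35 higher without AL replicate 2 and 25 lower without CR replicate 2.

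Libraries of both diets share replicate numbers on their labels. The deviations of same-numbered libraries correlated at 0.131, 0.067, 0.22 and 0.429, and those of differently numbered libraries at -0.35 to 0.289. Since the former were not all over 0.1, the libraries were not taken as pairs. The labels do not say whether they are pairs, and this cut does not show that they are not. A replicate block gave 388 genes higher and 312 lower, kept both member calls and turned the log2 fold change of Tgfbr2 to -0.055. In the pathway lists it gave 8 called genes in place of 3, with Nrros (adjusted p = 0.0478), Fn1 (0.00617) and Col1a2 (0.0132) lower and Ppm1a (0.0109) and Zfyve9 (0.0393) higher, all by edgeR. Col1a2 (log2 fold change -1.01, adjusted p = 0.203, without the block) was at 0.93 with the parotid covariate (adjusted p = 0.557, edgeR).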

Other observations

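The remaining marker lists are given by their counts and medians. The endothelial markers summed to 9.89 to 13.5 CPM in AL and 13.2 to 17.0 CPM in CR (0 of 5 called, 4 positive, median log2 fold change 0.44). The duct list (0 of 4 called) had a median of 0.01, the smooth muscle and pericyte list (0 of 3) 0.21 and the myoepithelial list (0 of 4, none positive) -0.58. All 4 adipose and all 4 skeletal muscle genes tested had positive log2 fold changes, with medians of 1.91 and 2.18, and none was called. Of the T cell list 1 gene was tested and not called, and of the B cell list none passed the filter. The T cell genes summed to 1.62 to 8.53 CPM in AL and 0.78 to 1.72 CPM in CR. The B cell genes summed to 0.66 to 7.18 CPM in AL and 0.14 to 0.74 CPM in CR, the lowest of these under the floor. The 9 lacrimal genes had a median log2 fold change of -0.42, and 4 were positive. Of the 9, 1 was called, Sox10, a transcription factor of secretory gland epithelium. It was higher in CR, against the median of its list, at 15.3 ± 2.53 CPM in AL and 67.2 ± 28.6 CPM in CR (log2 fold change 2.13 ± 0.32; adjusted p = 0.00746, edgeR). Like Tgfb2, Sox10 was lowest among the CR libraries in CR replicate 4, at 26.3 CPM.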
